A study of Sus scrofa with 8 samples.

Results

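Matrix metalloproteinases and the inhibitors that hold them in check were followed in the jejunum of weaned and suckling piglets. A list of 8 genes was looked up by RefSeq accession among the non-control probes of the array, and each gene was represented by its brightest probe. A probe was found for 6 of the 8, the metalloproteinases MMP1, MMP2, MMP3 and MMP9 and the tissue inhibitors TIMP1 and TIMP2, out of 3216 genes with a symbol. MMP7 and TIMP3 had no probe under this rule and were not analysed here. The 6 genes had 10 probes between them, and all 10 were well above background on all 8 arrays.

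Matrix metalloproteinases are zinc-dependent enzymes that cut collagens, other matrix proteins and many signalling molecules. Most are secreted as inactive precursors and are switched on by cleavage of a propeptide. Tissue inhibitors of metalloproteinases bind the active enzymes and block them, so tissue proteolysis depends on enzyme, activation and inhibitor together. In the intestinal wall these genes are known from matrix turnover, wound repair and inflammation, and are made by fibroblasts, macrophages, neutrophils and epithelium in differing mixtures.

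The weaned group held 4 Duroc × Landrace piglets aged 25 days that had left the sow at 21 days, 4 days before sampling, and were fed a basal diet (digestible energy 14.48 MJ/kg, crude protein 20.50%). The suckling group held 4 piglets of the same cross and age that stayed with the sow. All piglets came from 4 litters, with 1 piglet per litter in each group, but which litter a replicate number stands for is not stated. Each 1-colour array held RNA from a mid-jejunal segment of about 2 cm, so an array averages all layers of the wall, and fewer cells of a type cannot be told apart from less RNA per cell. Of 6 epithelial markers with a probe, among them FABP2, APOA4 and RBP2 of absorptive cells, all 6 were well above background on all 8 arrays. The 4 weaned arrays lay on one slide and the 4 suckling arrays on another, so the effects of slide and of weaning cannot be told apart. Suckling replicate 1 stood apart: its 75th percentile of processed intensity was 244, against 316 to 390 on the weaned arrays and 340 to 393 on the other suckling arrays. Its epithelial marker score, the median over markers of the log2 signal minus the marker's mean, was -0.94, against -0.28 to 0.43 on the other 7 arrays. Weaned replicate 2 was low in smooth muscle markers, with a score of -1.35 over 3 markers, against -0.34 to 0.79 on the other 7 arrays. The part of muscle content in the values below was not tested.

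The comparison asks whether these transcripts differ between piglets weaned 4 days earlier and littermates still suckling. None of the 6 genes passed limma's test (Benjamini-Hochberg adjusted p under 0.05 over all tested probes), where 0.177% of the 30554 tested probes passed. The smallest limma adjusted p among the 6 was 0.437, and none had an unadjusted p under 0.05, which 12.3% of all tested probes had. The log2 differences, weaned minus suckling, were all between -0.041 and 0.51, with a median of 0.14 beside 0.061 over 2813 tested genes with a symbol. Signals are given below as log2 of the processed intensity over the array's 75th percentile, so 0 marks that percentile.

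**Figure D1:**
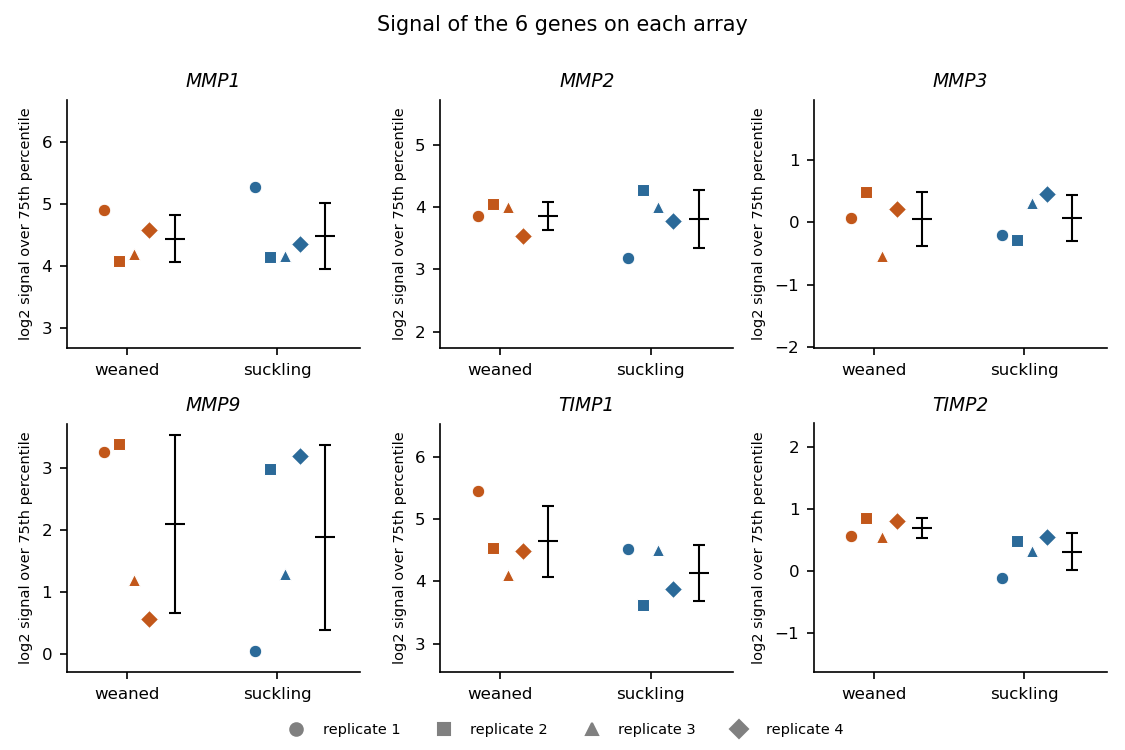
Signal of MMP1, MMP2, MMP3, MMP9, TIMP1 and TIMP2 on each array (vertical axis, log2 over the array's 75th percentile; every panel spans the same number of log2 units), weaned left of suckling, with mean and SD (n = 4 per group) beside the points. The MMP9 points split widely within both groups, while the other 5 genes stay within narrower ranges.

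MMP9, gelatinase B, which degrades basement membrane collagen and is stored in neutrophil granules, varied most. Its signal was 3.25, 3.37, 1.19 and 0.58 in weaned replicates 1 to 4, against 0.05, 2.98, 1.30 and 3.19 in suckling replicates 1 to 4. In each group 2 piglets were near 3 and the other 2 were at or below 1.30, and the groups overlapped over nearly their whole range. The means were 2.10 ± 1.42 in weaned and 1.88 ± 1.49 in suckling piglets (SD, n = 4 each), a log2 difference of 0.22 (SE 0.85, 95% interval -1.70 to 2.14, limma adjusted p = 0.939). The highest and the lowest of the 8 arrays differed 10.0-fold. The spread within groups was larger than that of most probes: its residual SD of 1.46 lay at the 98.9th percentile of all tested probes, whose median was 0.31.

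The second MMP9 probe gave the same ordering of piglets into high and low. It read 1.60, 1.91, -1.26 and -2.28 in weaned replicates 1 to 4, against -4.07, 1.34, -0.86 and 1.40 in suckling replicates 1 to 4. Across the 8 arrays the 2 probes correlated at r = 0.99, a description over arrays that share both probes. The fold between piglets depended on the probe, being 63.2-fold from highest to lowest with the second. Its lowest value was a dim processed intensity of 14.5, on suckling replicate 1, where the array's 75th percentile was 244. The sign of the MMP9 difference rested on single piglets: it was -0.39 without suckling replicate 1, -0.17 without weaned replicate 1 and -0.21 without weaned replicate 2. It was 0.72 without weaned replicate 4, 0.52 without weaned replicate 3, 0.58 without suckling replicate 2, 0.66 without suckling replicate 4 and 0.025 without suckling replicate 3.

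Markers of neutrophils, cells known to carry MMP9, were set beside these values. Of 11 listed neutrophil markers 5 had a probe, and their score was 1.71, -0.080, -0.68 and -0.16 in weaned replicates 1 to 4, against 0.32, -0.54, -0.19 and 0.15 in suckling replicates 1 to 4. Weaned replicate 1 was high in both, but suckling replicate 2, with high MMP9, had a neutrophil score below that of suckling replicate 1, with the lowest MMP9. The summed neutrophil marker signal ran from 2.58 to 5.24 on weaned and from 2.59 to 3.53 on suckling arrays, in multiples of the 75th percentile. ELANE and LTF made up most of this sum, while the group means of S100A8, S100A9 and S100A12 lay between -4.97 and -3.62. S100A9 was well above background on 4 of 8 arrays. These 5 markers were named after their values were seen. The part of neutrophils in the MMP9 values was not tested.

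MMP2, gelatinase A, a product mainly of fibroblasts, had 3.85, 4.05, 4.00 and 3.54 in weaned replicates 1 to 4, against 3.19, 4.27, 4.01 and 3.77 in suckling replicates 1 to 4. Suckling replicate 1 was the lowest array, and the groups overlapped. The log2 difference was 0.052 (SE 0.24, 95% interval -0.50 to 0.60, limma adjusted p = 0.948), which corresponds to 1.04-fold with an interval from 0.709-fold to 1.52-fold. A second MMP2 probe gave 0.098 (SE 0.25), and the 2 probes kept a nearly constant gap, with an SD of 0.054 over the 8 arrays. The sign of the MMP2 difference turned, to -0.019 with quantile normalisation, -0.16 without suckling replicate 1 and -0.010 without weaned replicate 2.

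MMP1, the interstitial collagenase that opens fibrillar collagen, had 4.90, 4.08, 4.20 and 4.59 in weaned replicates 1 to 4, against 5.27, 4.15, 4.17 and 4.35 in suckling replicates 1 to 4. Replicate 1 was the highest array of each group. The log2 difference was -0.041 (SE 0.29, 95% interval -0.70 to 0.62, limma adjusted p = 0.967). It was 0.22 without suckling replicate 1, 0.078 without weaned replicate 2 and 0.039 without weaned replicate 3. Over the 8 arrays MMP1 ran opposite to MMP2 (r = -0.85, a description over arrays that share their piglets), with suckling replicate 1 at the top for MMP1 and at the bottom for MMP2.

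MMP3, stromelysin, which cuts many matrix proteins and helps to activate the MMP1 and MMP9 precursors, had 0.08, 0.49, -0.54 and 0.21 in weaned replicates 1 to 4, against -0.21, -0.28, 0.32 and 0.46 in suckling replicates 1 to 4. Weaned replicate 3 was the lowest array, and the groups overlapped. The log2 difference was -0.011 (SE 0.26, 95% interval -0.60 to 0.58, limma adjusted p = 0.990). It was 0.19 without weaned replicate 3, 0.070 without suckling replicate 3 and 0.12 without suckling replicate 4. The gene table of the Sscrofa11.1 assembly lists MMP10, a close relative, as another name of MMP3, and whether this probe separates them was not tested. The same table places MMP3 next to MMP1 on the chromosome. Their signals over the 8 arrays correlated at r = -0.19.

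TIMP1, an inhibitor of most metalloproteinases that is known to be induced in inflamed tissue, had 5.45, 4.54, 4.10 and 4.49 in weaned replicates 1 to 4, against 4.52, 3.62, 4.51 and 3.88 in suckling replicates 1 to 4. Weaned replicate 1 stood highest, and weaned replicate 3 lay below suckling replicates 1 and 3. The means were 4.64 ± 0.57 in weaned and 4.13 ± 0.45 in suckling piglets (SD, n = 4 each). The log2 difference was 0.51 (SE 0.32, 95% interval -0.21 to 1.24, limma adjusted p = 0.556), or 1.43-fold, and it was 0.24 without weaned replicate 1. The other TIMP1 probes gave 0.74 (SE 0.34) and 0.66 (SE 0.31), with limma adjusted p-values of 0.430 and 0.439. The 3 probes correlated with each other at r = 0.96 to 0.99 across the arrays.

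**Figure D2:**
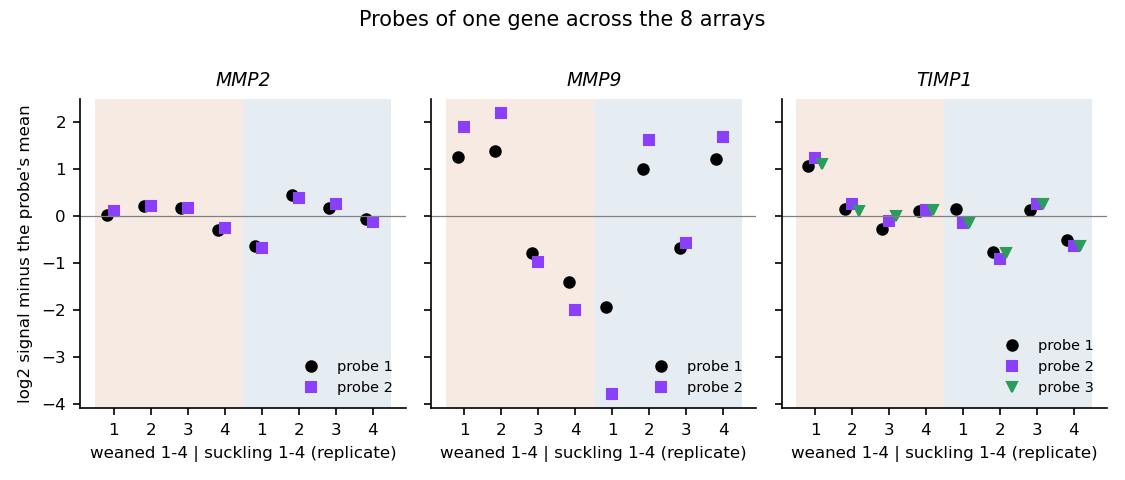
Log2 signal minus the probe's own mean over the 8 arrays (vertical axis) for the 2 probes of MMP2, the 2 of MMP9 and the 3 of TIMP1, by replicate, weaned arrays left and suckling arrays right. Probes of one gene place the arrays alike, and the second MMP9 probe spans a wider range than the first.

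TIMP2, which inhibits metalloproteinases and also takes part in the activation of MMP2 at the cell surface, had 0.57, 0.86, 0.56 and 0.80 in weaned replicates 1 to 4, against -0.11, 0.49, 0.32 and 0.55 in suckling replicates 1 to 4. The groups did not overlap, although the lowest weaned and the highest suckling array were 0.0099 apart. TIMP2 was the 1 of 6 genes without overlap, where 7.74% of all tested probes had none and 4.84% had none with weaned piglets higher. The means were 0.70 ± 0.16 in weaned and 0.31 ± 0.30 in suckling piglets (SD, n = 4 each). The log2 difference was 0.38 (SE 0.18, 95% interval -0.026 to 0.80, limma adjusted p = 0.437), or 1.31-fold. Without suckling replicate 1, the lowest array, it was 0.24.

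**Figure D3:**
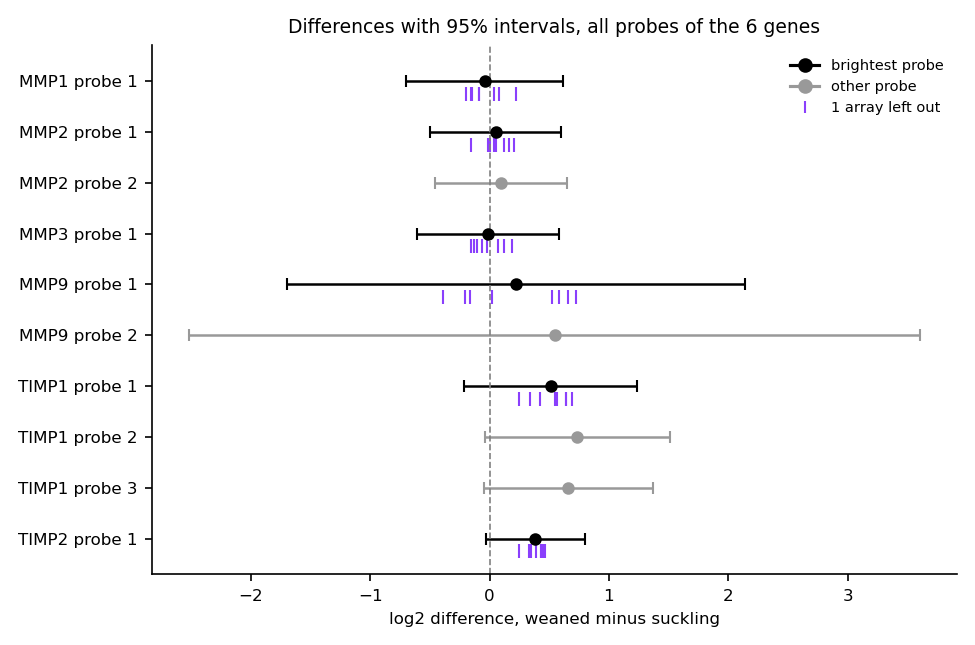
Log2 difference, weaned minus suckling (horizontal axis), for every probe of the 6 genes, with limma's 95% interval. Black marks the brightest probe, grey the others, and small ticks the value with 1 array left out. The intervals of all 10 probes include 0, and those of MMP9 are the widest, from -1.70 to 2.14 with the brightest probe.

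Further metalloproteinases were followed through a list. Of 18 other genes listed, TIMP4 among them, 5 had a probe and 4 were tested, and none of the 4 passed limma's test. MMP14, the membrane-bound enzyme that activates MMP2 together with TIMP2, had 4.01, 3.58, 3.66 and 3.51 in weaned replicates 1 to 4, against 3.18, 3.60, 3.29 and 2.72 in suckling replicates 1 to 4. Its log2 difference was 0.49 (SE 0.21, limma adjusted p = 0.391), and 1 suckling piglet lay within the weaned range. MMP12, the macrophage elastase, had -0.032, 0.36, -3.86 and -4.14 in weaned replicates 1 to 4, against -4.79, -4.92, -3.53 and -4.70 in suckling replicates 1 to 4. The 2 weaned piglets with high MMP12 were the 2 with high MMP9, whereas suckling replicates 2 and 4, also high in MMP9, were low in MMP12. The MMP12 log2 difference was 2.57 (SE 1.02, limma adjusted p = 0.367), and it was 1.14 with normexp background correction. MMP11, stromelysin-3, had a log2 difference of -0.039 (SE 0.26).

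Macrophage and dendritic markers were set beside these values. Of 12 such markers 6 had a probe, and all 6 had a higher mean in weaned piglets, as had 57.2% of tested genes with a symbol, while none passed limma's test. AIF1 and FCER1G, named after their values were seen, were higher in weaned piglets without overlap, where 4.84% of all tested probes were. The median score over the 6 markers was 0.57, 0.48, 0.030 and 0.032 in weaned replicates 1 to 4, against -0.53, -0.46, -0.034 and -0.41 in suckling replicates 1 to 4. Single markers did not all follow the score: CD86 was highest in weaned replicate 3, and CD163 in suckling replicate 1 (both named after their values were seen). The summed signal of the 6 ran from 42.1 to 57.0 on weaned and from 33.0 to 42.1 on suckling arrays, in multiples of the 75th percentile. The part of these cells in the MMP12 and TIMP1 values was not tested.

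Related enzymes, and the plasmin system that activates metalloproteinase precursors, were also listed. Of 16 ADAM, ADAMTS and meprin genes 4 were tested and none passed limma's test. ADAM10 and ADAM17, which shed proteins from the cell surface, had log2 differences of 0.17 (SE 0.13) and -0.19 (SE 0.28). Of 25 activators and other inhibitors 12 had a probe, 10 were tested and none passed limma's test. PLAU, the urokinase that makes plasmin, was 3.23 ± 0.21 in weaned and 2.97 ± 0.22 in suckling piglets (SD, n = 4 each).

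Cytokines and transcription factors known to regulate metalloproteinase genes made up a further list. Of 36 listed, 21 had a probe, 20 were tested and none passed limma's test, while 7 had an unadjusted p under 0.05 (5 higher, 2 lower), which 12.3% of all tested probes had. The groups did not overlap for 4 genes that were higher and 1 that was lower in weaned piglets, where 4.84% and 2.9% of all tested probes did so. TNF was 0.20 ± 0.30 in weaned and -0.72 ± 0.27 in suckling piglets, without overlap (SD, n = 4 each; log2 difference 0.92, limma adjusted p = 0.155). In the authors' deposited log2 values the TNF difference was 1.26 (limma adjusted p = 0.0354), the 1 setting in which TNF passed, and with normexp background correction it was 0.52. CXCL8, a neutrophil attractant, was 2.71 ± 0.35 in weaned and 1.91 ± 0.30 in suckling piglets, again without overlap (limma adjusted p = 0.233). IL1B had a log2 difference of 1.32 (SE 0.50), PTGS2 of 0.61 (SE 0.33), IL6 of 0.16 (SE 0.36) and TGFB1 of -0.039 (SE 0.18). With normexp background correction IL1B was 0.82, PTGS2 0.20 and IL6 0.0096. IL6 ran from 0.00064 without suckling replicate 4 to 0.50 without suckling replicate 1. JUN, a subunit of the AP-1 factor, was 5.46 ± 0.21 in weaned and 6.60 ± 0.50 in suckling piglets, without overlap (log2 difference -1.14, limma adjusted p = 0.152). Its partner FOS had a log2 difference of -0.11 (SE 0.52), and ETS1 had 0.21 (SE 0.15), or 0.10 with normexp background correction. Without suckling replicate 1, AREG of this list passed (named after its values were seen), where 548 of 30344 tested probes passed.

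Matrix proteins, the substrates, had lower means in weaned piglets for 10 of the 11 genes tested, of 36 listed. Of all tested genes with a symbol 57.2% had a higher mean in weaned piglets. The median log2 difference of the 11 was -0.34, beside 0.061 over all tested genes with a symbol, and none passed limma's test. The median score over the 11 overlapped between the groups, at -0.34 to 0.12 on weaned and 0.052 to 0.43 on suckling arrays. COL1A2, a chain of fibrillar collagen, was 3.91 ± 0.44 in weaned and 4.48 ± 0.33 in suckling piglets (SD, n = 4 each; log2 difference -0.57, limma adjusted p = 0.409). POSTN, a matrix protein of fibroblasts named after its values were seen, was the 1 gene of the list without overlap, lower in weaned piglets, where 2.9% of all tested probes were lower without overlap. The fibroblast markers in this list, COL1A2, DCN and LUM, are themselves matrix genes. THY1, a fibroblast marker outside this list, had a log2 difference of 0.025 (SE 0.20). Its mean signal was low, -4.54 in weaned and -4.56 in suckling piglets, so it adds little to the sum that follows. The summed signal of 4 fibroblast markers ran from 45.8 to 66.9 on weaned and from 52.6 to 84.5 on suckling arrays, in multiples of the 75th percentile, and its part in the matrix values was not tested. Of 6 endothelial markers with a probe 4 had a lower mean in weaned piglets, and their median log2 difference was -0.34. PECAM1, CDH5 and KDR, named after their values were seen, had an unadjusted limma p under 0.05, which 12.3% of all tested probes had. CDH5 was lower in weaned piglets without overlap, where 2.9% of all tested probes were. FLT1 and ENG, also named after their values were seen, had higher means in weaned piglets (log2 differences 0.11 and 0.21). None of the 6 passed. The summed endothelial signal ran from 14.4 to 14.6 on weaned and from 16.3 to 17.9 on suckling arrays, in multiples of the 75th percentile, and its part in the matrix values was not tested.

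**Figure D4:**
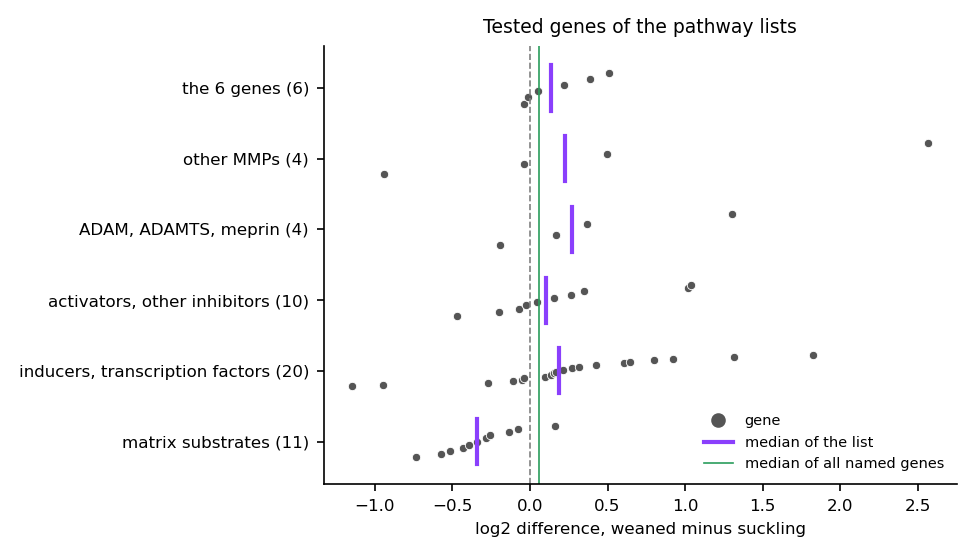
Log2 difference, weaned minus suckling (horizontal axis), of each tested gene in the pathway lists, with the number tested in parentheses. Thick bars mark each list's median and the thin vertical line the median of all tested genes with a symbol, 0.061. The matrix substrates have the 1 median below 0, at -0.34.

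Among 2772 other genes with a symbol and a value on every array, those whose signal followed each of the 6 most closely differed from gene to gene. These correlations are over the same 8 arrays, were picked as the highest of many, and are given as a description. MMP9 ran closest to CD3E, a chain of the T cell receptor complex (r = 0.91), which had 1.49, 1.66, 1.13 and 0.71 in weaned replicates 1 to 4, against 0.72, 1.15, 0.78 and 1.61 in suckling replicates 1 to 4, and next to ACVR1B (r = 0.89). TIMP1 ran closest to SAA3, an acute-phase serum amyloid A (r = 0.97), and to IFN-DELTA-9 (r = 0.96). SAA3 had 6.10, 0.60, -2.30 and -0.22 in weaned replicates 1 to 4, against 0.49, -2.87, -0.091 and -3.40 in suckling replicates 1 to 4. Weaned replicate 1 was highest for both TIMP1 and SAA3, and the r between them ran from 0.939 to 0.997 with 1 array left out.

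MMP2 ran closest to the zinc transporter gene SLC30A6 (r = 0.96) and to CD207 (r = 0.94), and MMP1 to PRKAA2 and SCML2 (r = 0.94 each). MMP3 ran closest to DMBT1, a secreted mucosal defence protein, and to RAB10, a small GTPase (r = 0.94 each). TIMP2 ran closest to LGALS3, a galectin, and to BAG6 (r = 0.94 each). Without suckling replicate 1 these r values were 0.81 for LGALS3 and 0.80 for BAG6, and the BAG6 value was 0.31 in the authors' deposited log2 values.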

How the data were processed

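RNA of 8 jejunal samples, 1 piglet each, was hybridised to 1-colour Agilent arrays. Agilent Feature Extraction 10.7 extracted the spot values, per the submitters' processing notes. These deposited files hold a processed intensity from which background had been subtracted, the median spot and background intensity, and other per-spot flags. The authors' deposited series table holds log2 values of the same probes with a common distribution (median 5.50 in each column); how it was made is not given in the sources used here.

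From these files, control spots were dropped, outlier spots set to missing, the log2 processed intensity reduced by the array's 75th percentile and spots of a probe averaged (43603 probes). Probes well above background on at least 4 arrays with at least 3 values per group were tested (30554) with limma 3.58.1 in R 4.3.3, two-sided, group as the sole term, Benjamini-Hochberg adjustment over all. Symbols came from unversioned RefSeq accessions in a Sscrofa11.1 gene table, which named 6924 probes. The brightest probe stood for a gene. The number of arrays limits the precision. The fits were tested on simulated data with independent normal values. They recovered 29% of the probes changed by a log2 of 1 and 88.6% of those changed by 2. The simulated arrays did not differ in quality, whereas limma's array weights ran from 0.30 to 2.34 on the real arrays. The percentages are averages over probes and do not give the recovery for a probe as variable as that of MMP9.

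The genes, lists and rules were chosen with earlier results of these data known. Named in the text are the 6 genes, 28 fixed pathway genes where tested (17), and for each of the 6 genes the 2 symbols of highest Pearson r. One pathway gene that the rule names is not reported here. Genes named otherwise are marked as such or belong to the lists of cell type markers, whose values were also known. Alternatives covered scaling, background correction, filters, flagged spots, variance model, array weights, replicate number as a block, the deposited table, an unmoderated test, the probe used and each array left out. Replicate numbers are shared between groups, but no source ties them to litters.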

Additional observations from a re-analysis of the deposited data

Results flagged for a closer look

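In 98 groups of 4 values, a sample lay far from the other 3 in 5, where chance gives about 1 in 20, or 4.9. Each value below is that sample's distance to its nearest neighbour as a share of the range of its group. For the third TIMP1 probe weaned replicate 1 lay highest in its group (0.871). Among the weaned arrays it was also lowest in the epithelial marker score (0.899) and in the 75th percentile of processed intensity (0.905). Suckling replicate 3 was highest for MMP12 (0.841) within its group, and suckling replicate 1 was highest for SCML2 (0.852). The brightest TIMP1 probe and both MMP9 probes did not meet this measure in either group.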

How the results depend on the processing

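No setting brought any of the 6 genes past the threshold in 124 recomputations, whose smallest limma adjusted p was 0.225. TIMP1 and TIMP2 kept their sign in all of theirs, with log2 differences of 0.24 to 0.74 and of 0.24 to 0.46, and TIMP2 had an unadjusted limma p under 0.05 in 6 of them. The differences of MMP1, MMP2, MMP3 and MMP9 turned sign in 17. With array weights they were 0.090 for MMP1, -0.074 for MMP2 and 0.071 for MMP3. MMP2 was -0.019 with quantile normalisation, -0.038 with normexp background correction and -0.022 with the authors' deposited values. With 1 array left out, the differences ran from -0.19 to 0.22 for MMP1, -0.16 to 0.21 for MMP2, -0.16 to 0.19 for MMP3 and -0.39 to 0.72 for MMP9. The same range was -0.23 to 0.18 for MMP11, -0.41 to 0.046 for ADAM17, -0.12 to 0.095 for TGFB1 and -0.62 to 0.16 for FOS. With the mean over a gene's probes ADAM17 was 0.054 and TGFB1 0.085, and with array weights TGFB1 was 0.0045 and FOS 0.27.

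Of all tested probes 54 passed, and 350 did so with array weights. The count ran from 9 to 548 with 1 array left out. It was 10, 9, 20 and 9 without weaned replicates 1 to 4, and 548, 22, 25 and 39 without suckling replicates 1 to 4. With the replicate number as a block 0 passed by limma, with 4182 at an unadjusted p under 0.05, and the fit changed no call for the 6 genes. The deviations of same-numbered arrays from their group means correlated at 0.37, 0.0076, 0.19 and -0.018 for numbers 1 to 4. These values cannot settle whether the numbers pair the samples, because the size of any litter effect is not known. The causes of the shifts in the count of probes passing were not tested.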
